A study of Lobaria pulmonaria with 11 samples.

Results

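The transcripts described here are the 100 that took the largest part of the fungal reads of the lichen Lobaria pulmonaria before it was irradiated with ultraviolet-B (UV-B) light. They were chosen by their mean level over the 3 libraries of day 0, out of 12089 mycobiont transcripts that passed an expression filter and 15607 listed, and they are called members below. The level is CPM, a transcript's count relative to its library's total after scaling by the trimmed mean of M-values (TMM), which sets the libraries to a common level over most transcripts. Transcript lengths are not used here and CPM is not a value per length, so a rank says how many reads a transcript took, not how many molecules it had. All 100 members passed the filter, and the lowest count of any member in any library was 120. Because the day 0 levels chose the members, their values on day 0 are a description. Differences of single transcripts from day 0 are given without p-values, and counts of calls against day 0 are a description only.

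The lichen is a joint body of a fungus and photosynthetic partners, and only the counts of the fungus, the mycobiont, are used. In all groups alike, wild thalli from aspen trunks had been air dried, frozen, rehydrated and kept wet in a climate chamber. Day 0 thalli (3 libraries) had received no UV-B. Thalli of day 2 (3 libraries), day 7 (2) and day 11 (3) had received cumulative doses of 28.8, 100.8 and 158.4 kJ/m2, given in daily sessions of 80 min at 3 W/m2. Dose and time spent wet in the chamber increased together and cannot be told apart. Whether replicates came from separate thalli is not given in the labels, so p-values measure the spread between these samples. The mycobiont totals were 8680745 to 17626099 counts per library. The RNA is from bulk thallus material, in which fewer cells using a transcript and less RNA per cell cannot be told apart.

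In growing fungi, the transcripts that take most reads are typically those for ribosomal proteins, translation factors, glycolytic enzymes, chaperones and small secreted or cell-wall proteins. UV-B is absorbed by DNA and by proteins, and the upper cortex of a lichen, which is built by the fungus, carries pigments that screen it. The table pairs its numeric transcript IDs with no gene name or function, so that none of these roles could be assigned to a member, and the fungal origin of the counts could not be checked against marker genes. Only 4 IDs are printed, and other transcripts are called by their rank on day 0.

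The members together held the largest part of the counts on day 2 and the smallest on day 7. They took 17.7%, 15.8% and 15.8% of all mycobiont counts in day 0 replicates 1, 2 and 3. They took 21.0%, 17.7% and 18.6% in the day 2 libraries, 13.1% and 13.8% in the day 7 libraries, and 14.5%, 17.0% and 14.8% in the day 11 libraries. The means were 16.4% ± 1.06 on day 0 (SD, n = 3), 19.1% ± 1.70 on day 2 (n = 3), 13.4% ± 0.492 on day 7 (n = 2) and 15.4% ± 1.38 on day 11 (n = 3). Every day 2 library lay above every library of days 7 and 11, and both day 7 libraries lay below all of day 11. Between the 3 irradiated days, which played no part in the choice, the share differed by an exact permutation test over all 560 assignments of the 8 libraries (p = 0.0107, adjusted by Benjamini-Hochberg for the 3 measures so tested to 0.0107, n = 3, 2 and 3). Without day 7 replicate 1 the difference was no longer detected (exact permutation p = 0.0714). These shares are of raw counts and depend on no scaling between libraries. The exact 95% Clopper-Pearson interval of day 0 replicate 1 ran from 17.64% to 17.68%, so that counting error, the only error it covers, was far smaller than the spread between replicates.

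**Figure D1:**
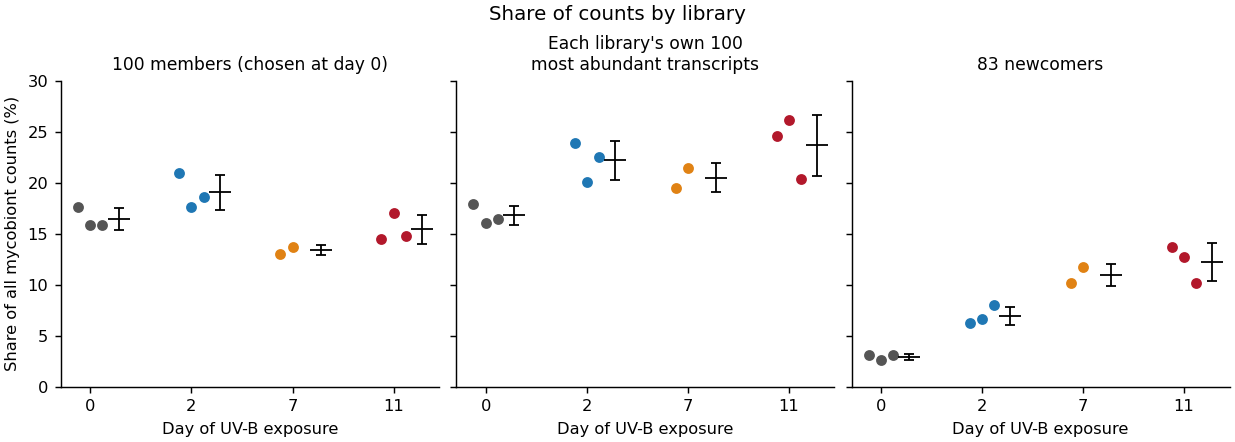
Share of all mycobiont counts (percent, vertical axis) by day of exposure (horizontal axis) for the 100 members, for the 100 most abundant transcripts of each library, and for the 83 newcomers that entered the 100 on a later day. Points are libraries, and the bars beside them are the mean ± SD (n = 3, 3, 2 and 3); the members peak at 19.1% on day 2 while the newcomers lie between 2.60% and 3.10% on day 0 and between 6.26% and 13.8% afterwards.

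The larger part of the members by number, ranks 11 to 100, showed the same order of days as all 100. They held 12.2% ± 0.490 of the counts on day 0 (SD, n = 3), 13.6% ± 0.765 on day 2 (n = 3), 10.7% ± 0.644 on day 7 (n = 2) and 12.0% ± 0.714 on day 11 (n = 3). The irradiated days differed here (exact permutation p = 0.0107, adjusted 0.0107, over the 8 irradiated libraries with n = 3, 2 and 3). Ranks 11 to 100 hold most of the share of all 100 in the same libraries, so this test is not independent of the first. The 10 leading members held 4.29% ± 0.570, 5.50% ± 0.942, 2.66% ± 0.152 and 3.46% ± 0.700 on days 0, 2, 7 and 11. The 100 most abundant transcripts of each library itself, whichever they were, took 16.1% to 17.9% on day 0, 20.1% to 23.9% on day 2, 19.5% and 21.5% on day 7, and 20.4% to 26.1% on day 11. The ranges of all 3 irradiated days lay above that of day 0, also on day 7, where the members' own share was lowest.

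Of the 100 members, 67 were still among the 100 most abundant by the mean of day 2, 49 by that of day 7 and 51 by that of day 11. Counted in single libraries, 63, 66 and 58 members stood among the library's own 100 on day 2, 47 and 48 on day 7, and 50, 53 and 54 on day 11. In the day 0 libraries, which chose them, the numbers were 90, 88 and 86. The irradiated days did not overlap and differed by the exact permutation test (p = 0.0107, adjusted 0.0107, n = 3, 2 and 3). Libraries of the same day also differ in their 100. When the 100 were chosen from 2 day 0 libraries only, the irradiated libraries kept 46 to 67 of them, against 81 in the day 0 library left out, whichever of the 3 it was. Chosen in this way, they held 12.8% to 21.5% of the counts in the irradiated libraries, against 17.0%, 15.3% and 15.6% in the day 0 library left out.

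A smaller part of the first 10 than of the first 200 kept its place, but the first 10 are few transcripts. Of the 10 most abundant transcripts of day 0, 6 were among the 10 of day 2, 4 among those of day 7 and 3 among those of day 11. Of the first 50, 33 (66.0%), 19 (38.0%) and 20 (40.0%) were among the first 50 of days 2, 7 and 11. Of the first 200, 141 (70.5%), 104 (52.0%) and 107 (53.5%) were among the first 200 of these days. On day 7 the first 50 thus kept no larger part than the first 10. Turnover between day 0 libraries was counted for the list of 100 alone. Over the 3 later days, 39 members stayed in the 100 on every day, 13 on 2 days, 24 on 1 day and 24 on none. Only 26 were among the 100 of each of the 11 libraries. The median member ranked 69 on day 2, 109 on day 7 and 97.5 on day 11. On day 2 no member ranked beyond 1000, while 8 did on day 7 and 9 on day 11, down to rank 6075 and 6085. The order of the members resembled that of day 0 less on the later days: Spearman's rho across the 100 members between the mean levels of a day and of day 0 was 0.65 on day 2, 0.28 on day 7 and 0.27 on day 11. This is a description across transcripts that share their libraries.

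**Figure D2:**
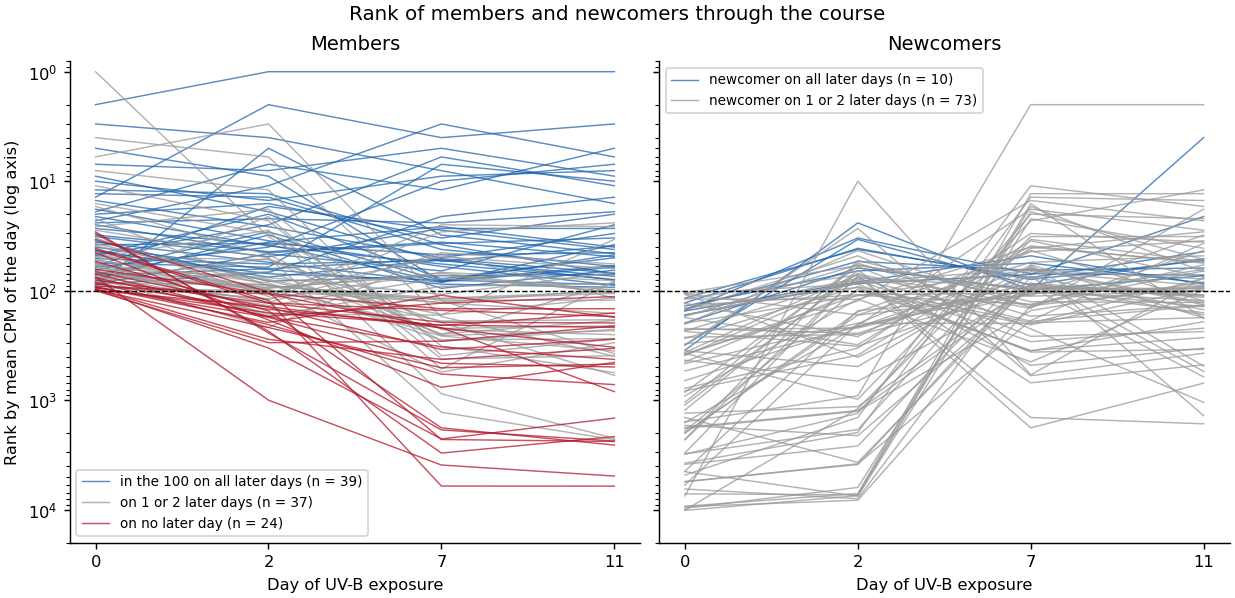
Rank by mean CPM of the day (log axis, 1 at the top) against day of exposure, for the 100 members and the 83 newcomers, with a line for each transcript and a dashed line at rank 100. Of the members, 39 stay above the dashed line throughout and 24 lie below it on every later day, and the lowest reach rank 6085; 33 newcomers are above it on day 2, 51 on day 7 and 49 on day 11.

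At the very top, the member of rank 1 lost its place and that of rank 2 took it. The first had 6171, 5852 and 6460 CPM on day 0, 2892, 1986 and 1883 CPM on day 2, 610.7 and 370.1 CPM on day 7, and 334.9, 599.4 and 869 CPM on day 11. Its 3 day 0 libraries lay above all 8 others, and by mean it ranked 32, 290 and 225 on the later days. The second had 6401, 2957 and 3649 CPM on day 0. It had 28102, 13872 and 25831 CPM on day 2, 12112 and 5149 CPM on day 7, and 17727, 28470 and 11133 CPM on day 11. It ranked first on all 3 irradiated days by mean and led 7 of the 8 irradiated libraries. Alone it held 2.05% ± 0.595 of all mycobiont counts on day 2 and 1.70% ± 0.707 on day 11 (SD, n = 3 each). Its day 7 libraries overlapped those of day 0, and its spread was wide on every day.

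Among the other leading members, those of ranks 4, 6 and 8 were high on days 0 and 2 and low on days 7 and 11. That of rank 4 averaged 3776 ± 1355 CPM on day 0, 5215 ± 3799 CPM on day 2, 668 ± 164 CPM on day 7 and 432 ± 240 CPM on day 11. That of rank 6 averaged 3132 ± 1214, 6169 ± 1741, 849 ± 446 and 451 ± 440 CPM on the same days, and that of rank 8 averaged 2577 ± 797, 3545 ± 530, 416 ± 229 and 523 ± 207 CPM (SD; n = 3, 3, 2 and 3). For each of the 3, all libraries of days 7 and 11 lay below all of days 0 and 2. The share of all transcripts so placed is not given, so this is a description of these 3 alone. The member of rank 7 had all 8 irradiated libraries above day 0 and close to each other, with 3041 ± 682, 4587 ± 560, 4951 ± 217 and 5043 ± 393 CPM. Of all transcripts, 10.9% were so placed, and no comparison between days called this member. The members of ranks 3 and 10 stayed among the first 20 on every day, and those of ranks 5 and 9 among the first 100.

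**Figure D3:**
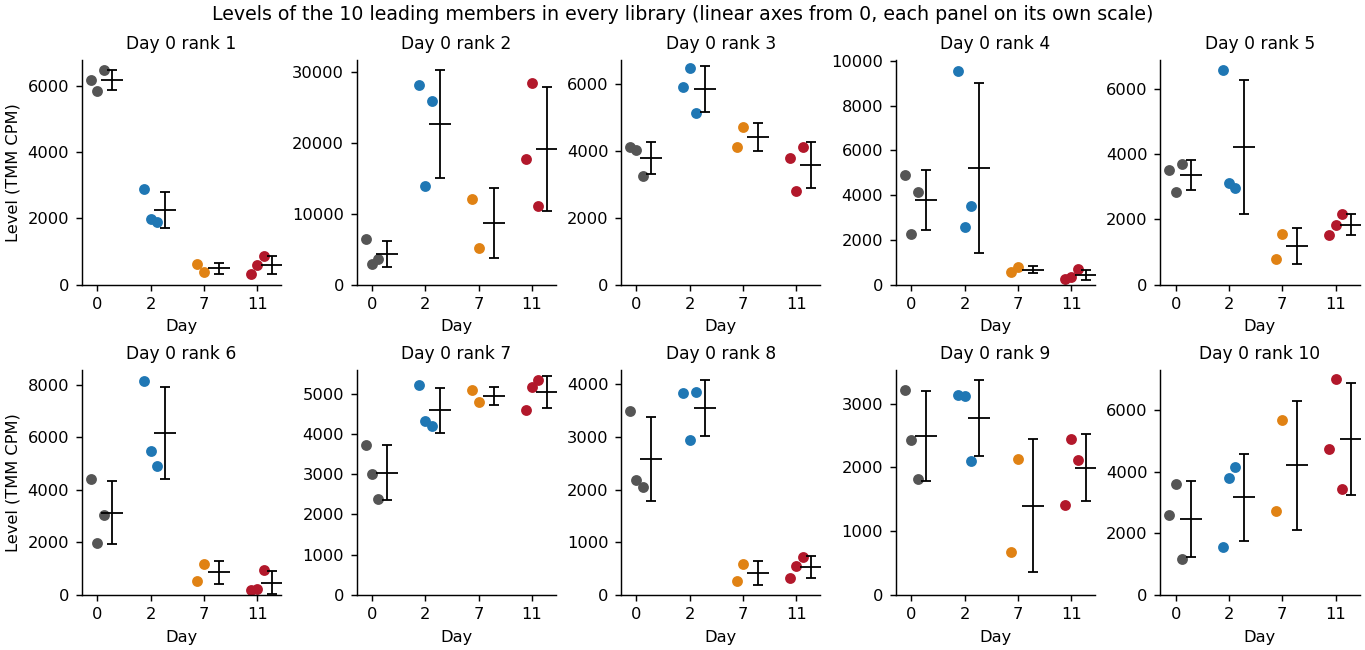
Level (TMM CPM, linear axes from 0, each panel on its own scale) of the 10 members that led on day 0, by day of exposure. Points are libraries, and the bars beside them are the mean ± SD (n = 3, 3, 2 and 3); rank 1 averages 2254 CPM on day 2 and 490.4 CPM on day 7, rank 2 peaks at 22602 CPM on day 2, and ranks 4, 6 and 8 are low on days 7 and 11.

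Set against day 2, which did not enter the choice, most of the members that were called were lower on the later days. On day 11, 29 members were called, 3 higher and 26 lower than on day 2, by edgeR's quasi-likelihood test at a Benjamini-Hochberg adjusted p under 0.05, while 10.7% of all 12089 transcripts were called, 4.08% higher and 6.60% lower. On day 7, 21 members were called, 1 higher and 20 lower than on day 2, against 5.57% of all transcripts, 2.23% higher and 3.33% lower. The share of members called lower was thus above that of all transcripts in both comparisons. Day 2 did not enter the choice, but its levels resembled those of day 0 most. Spearman's rho across the members with day 0 was 0.65 on day 2, against 0.28 and 0.27 on days 7 and 11. Members chosen for high day 0 levels could therefore lean lower after day 2. The part of the choice in these calls was not tested. Among the 100 transcripts that followed on day 0, ranks 101 to 200, 3 were called higher and 17 lower on day 11, and 2 higher and 9 lower on day 7. The median log2 fold change of the members was -0.26 on day 11 and -0.59 on day 7, beside -0.01 for all transcripts in each comparison. With library totals in place of TMM these medians were -0.28 and -0.50, beside -0.04 and 0.08. Both comparisons share the day 2 libraries, so that their lists are not independent. In both, 18 members were lower, 90.0% of the day 7 list and 69.2% of the day 11 list. The same overlap is not given for all transcripts, so it is not read as particular to the members.

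The day 7 count rests on few libraries. Leaving out day 7 replicate 1 gave 4 calls and leaving out replicate 2 gave 2, with the lone library assumed to vary like those of the other days, while 1.75% and 1.02% of all transcripts were called in these fits. The count was 11 without day 2 replicate 1 and 13 without day 0 replicate 1 (2.75% and 3.66% of all transcripts). For day 11, leaving out its replicate 1 gave 17 calls (4.15%). Calls over all transcripts were thus fewer in each of these 5 fits as well. The libraries themselves show the same side without a test: every day 11 library lay below every day 2 library in 41 members, and above in 14, beside 16.7% and 15.2% of all transcripts. Both day 7 libraries lay below every day 2 library in 54 members, and above in 9, beside 20.9% and 19.9% of all transcripts. By size, 29 members were at least 2-fold lower and 6 at least 2-fold higher on day 11 than on day 2 (12.3% and 7.56% of all transcripts), and 36 and 5 on day 7 (12.5% and 7.59%).

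**Figure D4:**
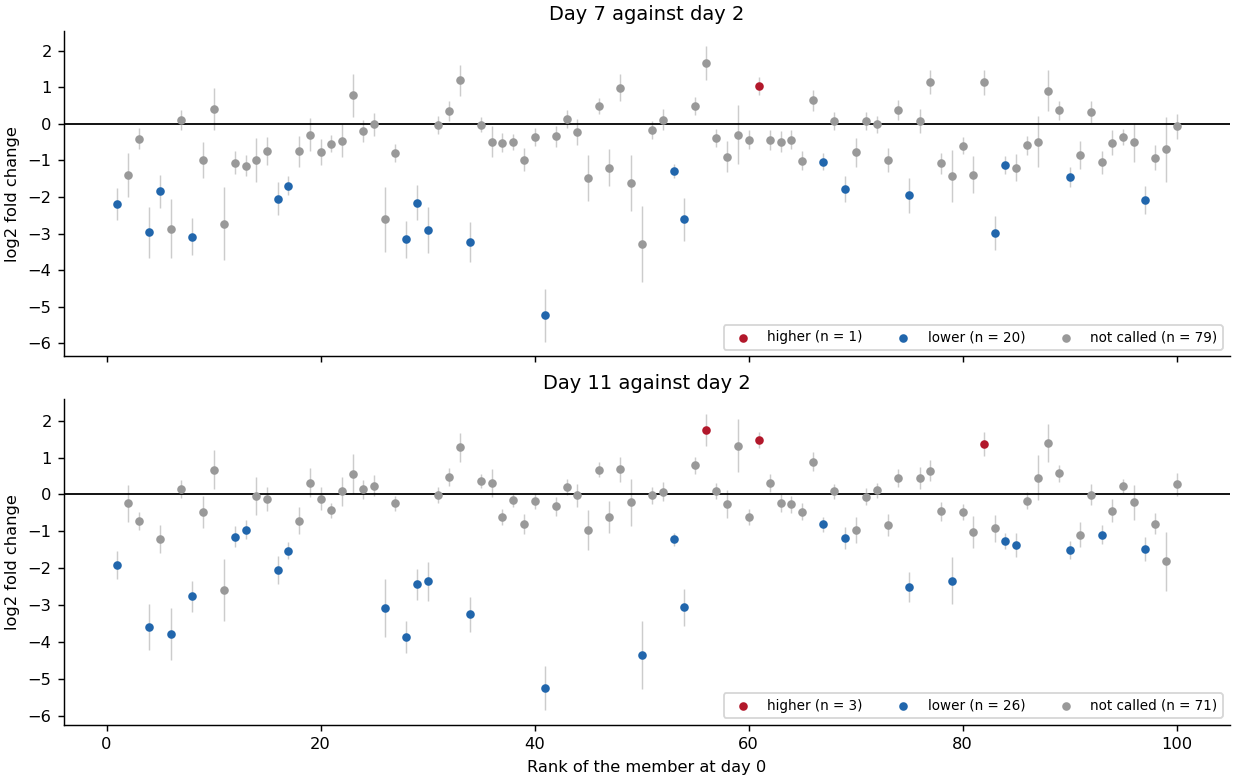
Log2 fold change of day 7 against day 2 (upper panel) and of day 11 against day 2 (lower panel) for each member, by its rank on day 0, with bars of ± 1 SE. Coloured points passed the edgeR test; 20 and 26 are lower, 1 and 3 are higher, and the lowest, at rank 41, lies at -5.24 in both panels.

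Of the 26 members lower on day 11 than on day 2, 15 came from the first 50 of the 100 members. Of the same 26, 23 were no longer among the 100 of day 11, beside 49 of all 100 members. A member called lower is more likely to leave the 100, so neither count is read as a result. Transcript 1269960, of rank 41, had the largest difference. It had 1175, 1756 and 483.2 CPM on day 0, 873.3, 1198 and 799 CPM on day 2, 12.3 and 38.5 CPM on day 7, and 32.5, 18.2 and 25.2 CPM on day 11. All libraries of days 7 and 11 lay far below those of days 0 and 2. Its log2 fold change from day 2 was -5.24 on day 11 (SE 0.60, edgeR adjusted p = 0.00188) and -5.24 on day 7 (SE 0.72, adjusted p = 0.00609). The call on day 11 held under all 18 alternatives, with adjusted p of 3.17e-23 to 0.0110. The value for day 7 was -4.63 without day 7 replicate 1 and -6.29 without replicate 2.

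Transcript 1248150, of rank 75, had the largest difference below day 0 when each member is taken by the smallest of its 3 daily differences, out of 3 members with every irradiated library below day 0 (8.82% of all transcripts were so placed). It had 923.5, 758 and 741 CPM on day 0, 232.9, 317.3 and 151.7 CPM on day 2, 90.3 and 30.4 CPM on day 7, and 29.5, 44.1 and 49.6 CPM on day 11. The day 2 libraries lay below all of day 0 and above all of days 7 and 11. The later difference was called, with a log2 fold change of day 11 from day 2 of -2.51 (SE 0.42, edgeR adjusted p = 0.00768, and 4.99e-08 to 0.0382 over 18 alternatives). Its rank by mean was 998, 3904 and 4923 on days 2, 7 and 11.

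The other members with the largest differences of day 11 from day 2 were those of ranks 50, 28, 6 and 4, with log2 fold changes of -4.35 (SE 0.92), -3.86 (SE 0.44), -3.77 (SE 0.71) and -3.59 (SE 0.62). The edgeR adjusted p values were 0.0192, 0.00186, 0.0117 and 0.00879. The call at rank 50 was lost without day 11 replicate 2 (adjusted p = 0.0539) and in a fit of the day 2 and day 11 libraries alone (adjusted p = 0.0607), and those at ranks 28, 6 and 4 held under all 18 alternatives. Single libraries moved each fold by over 1.5 times: without day 11 replicate 3 the values were -6.22 at rank 50 and -4.97 at rank 6, and without day 2 replicate 1 they were -3.25 at rank 28 and -2.81 at rank 4. The member of rank 50 had 2714, 2418 and 2149 CPM on day 2, but 25.2, 39.8 and 290.7 CPM on day 11, so that replicate 3 stood above the other day 11 libraries. The member of rank 1 was also called on day 11, at -1.91 (SE 0.37, edgeR adjusted p = 0.0129), and that of rank 8 at -2.76 (SE 0.42, adjusted p = 0.00580), and both calls held under all 18 alternatives.

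The 3 members called higher on day 11 than on day 2 were those of ranks 56, 61 and 82, while a stricter filter called 6 higher. That of rank 61 had 1035, 887.7 and 912.4 CPM on day 0, 2102, 1963 and 1755 CPM on day 2, 3565 and 4414 CPM on day 7, and 5592, 5987 and 4567 CPM on day 11. Its days did not overlap and were in the order of time. Its log2 fold change of day 11 from day 2 was 1.47 (SE 0.22, edgeR adjusted p = 0.00554, and 1.43e-16 to 0.0326 over 18 alternatives), and it was the member called higher on day 7, a call lost under 10 of 18 alternatives (adjusted p up to 0.195). Those of ranks 56 and 82 stood at 1.74 (SE 0.44, edgeR adjusted p = 0.0338) and 1.36 (SE 0.32, adjusted p = 0.0281). Their calls were lost under 6 and 7 of the 18 alternatives, with adjusted p up to 0.109 and 0.0953. For rank 56 the libraries concerned were day 0 replicate 2, day 2 replicates 1 and 2 and day 11 replicate 1 (adjusted p = 0.0516, 0.106, 0.0895 and 0.109 without each). For rank 82 they were day 2 replicates 1, 2 and 3 and day 11 replicates 1 and 2 (adjusted p = 0.0527, 0.0761, 0.0781, 0.0953 and 0.0753).

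Between day 11 and day 7 no member was called, nor any of all 12089 transcripts (0%), by edgeR. At an unadjusted p under 0.05 there were 4 members, all higher on day 11, and 622 of all transcripts. DESeq2 called 1 member and 72 of all transcripts (0.637%). The median member stood at 0.17 on the log2 scale on day 11 from day 7, beside -0.01 for all transcripts, and 71 of 100 members had a positive value. With library totals the values were 0.06 and -0.12, and 59 members were positive.

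Against day 0, the counts below are a description, because high day 0 levels chose the members. On day 2, 15 members were called, 13 higher and 2 lower, beside 13.1% of all transcripts (8.59% higher, 4.47% lower). The count on day 7 was 27, 9 higher and 18 lower, beside 17.5% (9.65% and 7.86%), and on day 11 it was 43, 23 higher and 20 lower, beside 29.0% (15.2% and 13.8%). Ranks 101 to 200 had 13, 12 and 24 higher and 2, 14 and 19 lower on the 3 days. For day 2 there were 5 calls when day 0 replicate 2 was left out, 6 when day 0 replicate 3 was, and 7 when day 2 replicate 3 was, beside 4.98%, 5.97% and 5.55% of all transcripts. For day 7 there were 11 when day 7 replicate 2 was left out, beside 4.68%. The members' median log2 fold change was 0.37, -0.25 and 0.10 on days 2, 7 and 11, beside -0.03, -0.02 and -0.02 for all transcripts. The signs at days 2 and 11 depend on the scaling. With library totals the medians were -0.06, -0.60 and -0.34, beside -0.45, -0.35 and -0.47 for all transcripts. Under both scalings the members' median lay above that of all transcripts on days 2 and 11 and below it on day 7. With library totals, 9, 7 and 11 members were called higher (3.85%, 4.43% and 5.99% of all transcripts) and 4, 23 and 35 lower (18.3%, 14.0% and 29.2%). In both directions together, the 13 members called on day 2 stood beside 22.2% of all transcripts. That scaling shifted the median of all transcripts by -0.42, -0.33 and -0.45, and the TMM factors of the day 0 libraries, 1.16 to 1.27, lay above those of all others, 0.864 to 1.01. The part of this gap in the differences from day 0 was not tested. DESeq2 called 24, 43 and 59 members against day 0 on days 2, 7 and 11 (21.9%, 27.4% and 35.2% of the transcripts it tested), and 44 and 43 members against day 2 on days 7 and 11 (15.2% and 18.3%).

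Single day 0 libraries that had no part in the choice gave fewer calls, among the members and among all transcripts. Fewer day 0 libraries are part of that setting, so the lower counts are not read as an effect of the choice. With members chosen from 2 day 0 libraries and the remaining one alone as day 0, assumed to vary like the other days, 0, 1 and 1 members were called on day 2 with replicates 1, 2 and 3 alone (0.230%, 0.220% and 0.414% of all transcripts). On day 7 there were 1, 1 and 9 (0.107%, 0.114% and 3.24%), and on day 11 there were 11, 10 and 17 (2.90%, 4.87% and 9.73%). In these fits the members' median log2 fold change on day 11 was -0.003, 0.13 and 0.23, beside 0.02, -0.01 and 0.01 for all transcripts.

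Sorted by their calls against day 0, 24 members were called higher on at least 1 day, 22 were called lower on at least 1 day, none was called both ways, and 54 were never called. Of all transcripts, 18.9% were called higher, 16.1% lower, 0.108% both ways and 65.1% never. The groups depend on the scaling: with library totals, an alternative added for these groups after the data were seen, 14 members were called higher, 37 lower and 1 both ways, beside 8.54%, 35.3% and 0.182% of all transcripts. The 22 lower members took 4.62% ± 0.422 of the counts on day 0, 3.63% ± 0.982 on day 2, 0.803% ± 0.0620 on day 7 and 0.774% ± 0.241 on day 11 (SD; n = 3, 3, 2 and 3). The most frequent sequence among them, in 14 members, was no call on day 2 and a lower call on days 7 and 11, which 5.10% of all transcripts had. The 24 higher members took 3.48% ± 0.350, 7.34% ± 1.09, 6.35% ± 0.191 and 7.89% ± 1.24 of the counts on the 4 days, and 6 of them were called on all 3 days, as were 3.95% of all transcripts. The 54 others took 8.34% ± 0.454, 8.11% ± 0.873, 6.25% ± 0.620 and 6.77% ± 0.592. These shares describe how the groups made by the calls add up and are not a test of them. By mean TMM CPM, 17 members were highest on day 0, 50 on day 2, 6 on day 7 and 27 on day 11, beside 34.9%, 23.3%, 20.8% and 21.0% of all transcripts. With library totals, also added after the data were seen, the numbers were 43, 27, 12 and 18, beside 57.7%, 12.8%, 19.3% and 10.2%, so that the day on which most members were highest depends on the scaling.

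**Figure D5:**
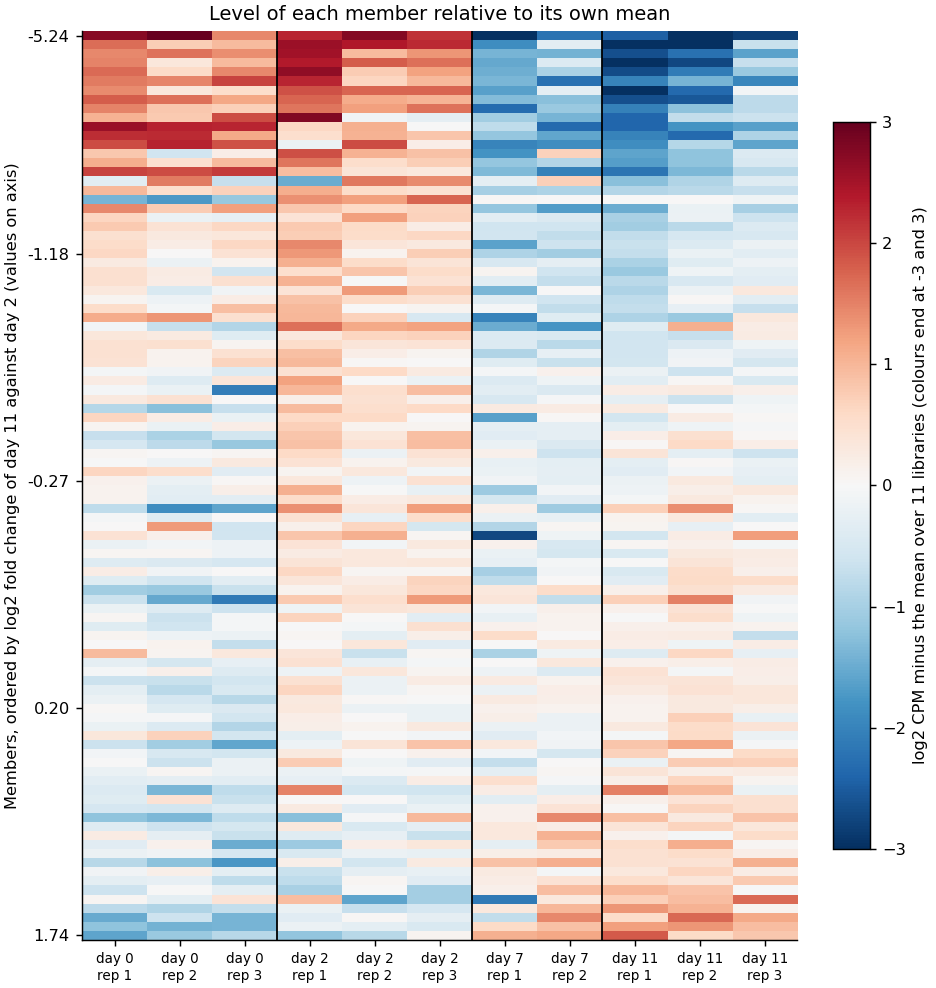
Level of each member in each of the 11 libraries as log2 CPM minus the member's own mean (colour, ending at -3 and 3), with members in rows ordered by the log2 fold change of day 11 against day 2 (-5.24 at the top to 1.74 at the bottom) and libraries in columns. The upper rows are above their mean in the libraries of days 0 and 2 and below it in those of days 7 and 11.

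Transcript 1261034, of rank 90, had the largest difference above day 0 when each member is taken by the smallest of its 3 daily differences, out of 18 with every irradiated library above day 0 (10.9% of all transcripts were so placed). It had 728.1, 575.4 and 861.4 CPM on day 0, 4955, 4462 and 6358 CPM on day 2, 1958 and 1919 CPM on day 7, and 1890, 1937 and 1742 CPM on day 11. The day 2 libraries stood above all others, and those of days 7 and 11 lay close together, above day 0. From day 0 its log2 fold change was 2.87 (SE 0.25), 1.43 (SE 0.26) and 1.36 (SE 0.24) on days 2, 7 and 11. The decrease after day 2 was called, at -1.50 for day 11 (SE 0.24, edgeR adjusted p = 0.00653, and 2.14e-11 to 0.0326 over 18 alternatives). By mean it ranked 5, 31 and 46. The members with the highest day 11 level relative to day 0 were those of ranks 61, 88, 56, 14 and 2, at 2.51, 2.33, 2.33, 2.16 and 2.14 on the log2 scale (SE 0.23 to 0.54). That of rank 14 had 3467, 1866 and 1239 CPM on day 0 and stood at rank 2 by mean on day 2 and rank 3 on day 11.

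The lowest on day 11 relative to day 0 were the members of ranks 41, 75, 28, 29 and 34, at -5.49, -4.30, -3.59, -3.57 and -3.46 on the log2 scale (SE 0.44 to 0.61). That of rank 34 had a mean of 1221 ± 259 CPM on day 0, 1055 ± 684 on day 2, 112 ± 46.4 on day 7 and 111 ± 28.1 on day 11 (SD; n = 3, 3, 2 and 3). That of rank 29 averaged 605 ± 110 CPM on day 2, against 1329 ± 496 CPM on day 0 (SD, n = 3 each), and its 3 day 2 libraries lay below those of day 0.

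The places lost by members went to 83 transcripts, here called newcomers, that entered the 100 on at least 1 later day. There were 33 on day 2, 51 on day 7 and 49 on day 11. All 3 days shared 10 of them, 24 entered on the pair of days 7 and 11 without day 2, and 17, 15 and 11 entered on day 2, day 7 and day 11 alone. Newcomers of day 2 had a median day 0 rank of 202, and 16 of the 33 had ranked 101 to 200. Those of days 7 and 11 came from further down, with median day 0 ranks of 431 and 447, and 21 of 51 and 19 of 49 had ranked beyond 1000. They were picked for their high later level, so no test is given. The newcomers of day 2 held 4.91% of the counts on day 2, against 1.59% on day 0, those of day 7 held 9.02% on day 7, against 1.80% on day 0, and those of day 11 held 10.0% on day 11, against 1.72% on day 0. The members they replaced held 2.46% on day 2, 2.53% on day 7 and 2.46% on day 11, against 3.57%, 7.68% and 7.47% on day 0.

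Transcript 1077903, of day 0 rank 313, had the largest difference above day 0, taken in the same way, among the 10 newcomers of all 3 days. It had 397, 311.8 and 370.7 CPM on day 0, 1734, 2042 and 2959 CPM on day 2, 1595 and 685.4 CPM on day 7, and 1495, 2668 and 1204 CPM on day 11. All 8 irradiated libraries stood above day 0, and the lowest of them was day 7 replicate 2. Its log2 fold change from day 0 was 2.64 (SE 0.41), 1.66 (SE 0.43) and 2.31 (SE 0.41), and its ranks were 34, 89 and 51, on days 2, 7 and 11.

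The highest newcomer of days 7 and 11 came from rank 1576 and reached rank 2 on both days. It had 186.8, 96.3 and 110.2 CPM on day 0 and 79.3, 94.3 and 579.7 CPM on day 2. It then had 6322 and 7413 CPM on day 7 and 13271, 24669 and 6868 CPM on day 11. On day 2 its libraries therefore overlapped those of day 0, and replicate 3 stood above the other 2. The newcomer that started lowest among the leading ones came from rank 9292, with 40, 112 and 77 counts in the day 0 libraries. It averaged 5.19 ± 2.20 CPM on day 0, 15.3 ± 15.0 CPM on day 2, 3584 ± 2315 CPM on day 7 and 3846 ± 1272 CPM on day 11 (SD; n = 3, 3, 2 and 3). It stood at rank 13 on days 7 and 11.

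Other leading newcomers of day 7, from day 0 ranks 4824, 3752 and 377, had 3930 ± 783, 3522 ± 2801 and 3353 ± 855 CPM on day 7 (SD, n = 2), against 40.0 ± 17.6, 57.4 ± 39.1 and 317.9 ± 51.2 CPM on day 0 (n = 3). On day 11 the newcomer from rank 373 reached rank 12, with 4085, 4108 and 3555 CPM, against 383.8, 271.2 and 304.4 CPM on day 0. Day 2 had its own leading newcomers. The one from rank 7477 reached rank 10, with 3558, 3869 and 4933 CPM on day 2, against 20.7, 12.5 and 8.94 CPM on day 0. It had 61.4 and 582 CPM on day 7 and 435.1, 3196 and 956.5 CPM on day 11, so that its later libraries were spread widely. The one from rank 314 was high on day 2 alone among the days sampled, with 2474, 2435 and 2475 CPM there, against 457, 269.2 and 350.5 CPM on day 0, and 269 to 592 CPM in the later libraries. The one from rank 350 had 1636, 1418 and 4558 CPM on day 2, 685.1 and 1392 CPM on day 7, and 5688, 9031 and 2791 CPM on day 11, where it ranked 4.

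The level needed to stand among the 100 was itself different between days. The transcript at rank 100 had 666.7 CPM on day 0, 1084 on day 2, 1027 on day 7 and 1254 on day 11, so that a member could keep its level and lose its place. The median member had 1039 ± 99.5 CPM on day 0, 1371 ± 206 on day 2, 934 ± 89.9 on day 7 and 1219 ± 82.5 on day 11 (SD of libraries; n = 3, 3, 2 and 3). Differences of these levels from day 0 depend on TMM, whose factors were 1.16 to 1.27 on day 0 and 0.864 to 1.01 later. With library totals the members' median log2 fold change from day 0 was -0.06, -0.60 and -0.34 on days 2, 7 and 11. Around the limit on day 0, ranks 98, 99 and 100 had 671.6, 670.6 and 666.7 CPM, and ranks 101, 102 and 103, just outside, had 664.2, 661.1 and 658.9 CPM. These steps are smaller than the spread between replicates: the member of rank 99 had 369.8, 1358 and 283.6 CPM in the 3 day 0 libraries and was placed by replicate 2 alone. The median coefficient of variation of the members between replicates was 19.9% on day 0, 23.1% on day 2, 16.9% on day 7 and 22.4% on day 11, close to that of ranks 101 to 200 (16.4%, 24.5%, 17.5% and 18.5%). It was above 50% in 5, 11, 16 and 13 members on these days.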

How the data were processed

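Polyadenylated RNA was sequenced as 50-bp single-end reads, per the labels' protocols. The authors deposited raw counts per transcript ID, and tools listed in the submitters' processing notes are edgeR, HISAT2, HTSeq 0.5.4, Trimmomatic 0.39 and FastQC 0.11.8. For genome build, gene models and strand setting of the counting, the sources used here give nothing, so overlapping or near-identical transcripts remain uncertain. From the counts, R 4.3.3 and edgeR 4.0.16 (filterByExpr by day, TMM, robust quasi-likelihood fit over all 11 libraries with a mean per day, Benjamini-Hochberg over 12089 transcripts) gave CPM, fold changes and calls; the procedure was tested on simulated data. The standard error is the absolute log2 fold change over the square root of F. DESeq2 1.42.0, other scalings, filters and list sizes, and each library left out were alternatives. The members and lists were chosen with earlier results of these data known. A rule named 4 IDs: the members with the largest smallest difference over the 3 days above and below day 0, among those whose irradiated libraries all lay on that side, the same among newcomers of all 3 days, and the lowest other member at day 11. No replicate pair agreed within sampling noise (chi-square per degree of freedom 55.7 to 127). Totals of 8680745 to 17626099 counts leave counting error small beside the spread between replicates. Other tables of the series were not used here.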

Additional observations from a re-analysis of the deposited data

How the results depend on the processing

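The numbers of members kept in the 100 stayed within 1.5 times under all 16 alternatives: 63.0% to 70.5% of the list at day 2, 38.0% to 52.0% at day 7 and 40.0% to 53.5% at day 11. The difference of the members' share between irradiated days, a gap of 5.67 percentage points, kept its call under 14 of 15 alternatives, and leaving out 1 library gave gaps of 4.72 to 6.37. Without day 7 replicate 1 the gap was 5.32 and the call was lost. Scaling, filters and list size kept the sum of higher and lower calls within 1.5 times in every comparison, but not each direction: against day 0, library totals gave 11 higher and 35 lower on day 11 in place of 23 and 20, and 4 lower in place of 2 on day 2. DESeq2 called 24 members for day 2 and 43 for day 7 relative to day 0, 44 for day 7 relative to day 2, and 1 for day 11 relative to day 7. With only the libraries of both days, 5 members were called for day 7 and 18 for day 11 against day 2, beside 0.996% and 5.70% of all transcripts. Leaving out 1 library gave 5 to 16, 11 to 32 and 33 to 48 members for days 2, 7 and 11 against day 0. It gave 2 to 23 and 17 to 28 members for days 7 and 11 against day 2. Of all transcripts, these fits called 4.98% to 12.6% for day 2 and 18.9% to 30.9% for day 11 against day 0. For day 11 against day 2 they called 4.15% to 10.1%. The lowest day 7 counts, 11 and 2, came from fits with 1 day 7 library. With both day 7 libraries kept, day 7 had 9.57% to 19.6% called against day 0 and 2.75% to 5.42% against day 2. These ranges are therefore not read as particular to the members.

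With members chosen from 2 day 0 libraries and the other alone as day 0, assumed to vary like the other days, 0, 1 and 1 members were called at day 2, 1, 1 and 9 at day 7, and 11, 10 and 17 at day 11. Fewer day 0 libraries are part of that setting.

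Whether the replicate numbers pair the samples is not given in the labels and could not be settled here. Deviations from the day means of same-numbered libraries correlated at -0.08 to 0.39 (median 0.07), over 0.1 in 4 of 15 pairs. Those of other pairs correlated at -0.39 to 0.25 (median -0.02), over 0.1 in 4 of 30 pairs. Of 11 libraries, 3 correlated best with their own number on every day. The deviations of a day's few libraries are tied to each other, so no conclusion is drawn. With a replicate block, 8 and 19 members were called for days 7 and 11 against day 2, in place of 21 and 29, beside 2.18% and 6.80% of all transcripts in place of 5.57% and 10.7%.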

Other observations

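Spearman's rho across the 100 members between replicate pairs was 0.68, 0.74 and 0.88 on day 2, 0.87 for the pair of day 7, and 0.94, 0.90 and 0.91 on day 11. On day 0 it was 0.76, 0.71 and 0.59, but these levels chose the members, so the value of day 0 is not set against those of the other days. These are descriptions across transcripts of the same libraries.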
